A study of Mus musculus with 10 samples.

Results

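The naive pluripotency factors described here are 8 genes, *Klf2*, *Klf4*, *Klf5*, *Esrrb*, *Tfcp2l1*, *Zfp42*, *Tbx3* and *Nr0b1*. They were chosen by name as members of the transcription factor network of naive ESC, and each was found once among the 27998 genes of one UMI table and the 32285 genes of another. Naive ESC resemble the epiblast of the blastocyst before implantation. LIF, through STAT3, and inhibition of GSK3, through beta-catenin and the repressor TCF7L1, feed into a set of partly redundant transcription factors that hold the cells in this state. The set is switched off as cells move to the formative state of EpiLC and the primed state of EpiSC, and parts of it are used again in primordial germ cells.

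The cells were mouse ESC of male lines, profiled by droplet scRNA-seq with 1 library per condition. Wild-type E14Tg2a cells gave 8 libraries. They were 2i ESC (grown with LIF and inhibitors of MEK and GSK3), d1, d2 and d3 EpiLC (2i ESC exposed to Activin A and bFGF), EpiSC (passaged in the same factors), S+L ESC (serum and LIF), and d2 and d4 embryoid bodies (EB), made from EpiLC with BMP4, SCF, EGF and LIF and holding PGCLC beside other cells. R1 cells gave 2 libraries of d4 EB, from WT cells and from the *Mll3/4* dCD line, which is derived from R1 and carries point mutations that take the methyltransferase activity from MLL3 and MLL4. Within both E14Tg2a EB libraries, 135 cells that the authors list as PGCLC (91 at d2 and 44 at d4) were separated from the remaining 446 and 324 cells.

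Levels are given as CPM, the pooled UMIs of a gene in each group scaled to the pooled UMIs of all genes there. Parentheses hold exact 95% Poisson intervals. Ratios carry exact conditional 95% intervals and shares of cells exact Clopper-Pearson ones. All of them cover counting error only. No test between conditions was possible with 1 library each, and stage or genotype cannot be told apart from library. The totals ran from 8757170 UMIs in the 227 cells of 2i ESC to 22887974 in the 1699 cells of dCD d4 EB. Of the cell barcodes, 8 were shared between pairs of E14Tg2a libraries, at most 2 by any pair, and 0 between the R1 libraries. The labels of the ESC libraries against those of EpiLC and EpiSC were checked on other genes. This check cannot tell 2i from S+L ESC or order the EpiLC days, and it did not cover the EB libraries. Summed over 5 primed epiblast markers (*Fgf5*, *Otx2*, *Pou3f1*, *Dnmt3b*, *Sox3*), the level was 54.6 CPM in 2i ESC, 50.7 CPM in S+L ESC and 690.0 to 1232 CPM in the EpiLC and EpiSC libraries, with *Dnmt3b* the most abundant of them in EpiSC at 389.7 CPM. *Fgf5* reached only 0.228 CPM in 2i ESC and had 0 UMIs in S+L ESC, with an upper limit of 0.365 CPM. The mutated genes were detected in both R1 libraries, *Kmt2c* (MLL3) at 47.5 CPM in WT and 53.8 CPM in dCD and *Kmt2d* (MLL4) at 29.4 and 29.1 CPM. Point mutations need not change these counts, so they do not check the genotype.

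*Klf2*, *Klf4* and *Klf5* encode zinc finger factors of the Krüppel-like family that bind shared sites in naive ESC. *Klf2* (ENSMUSG00000055148, chromosome 8, 72319033 to 72321656) stood at 485 CPM (471 to 500.1) in 2i ESC, 108 CPM (102 to 115) in d1 EpiLC and 13.2 CPM (11.1 to 15.5) in d2 EpiLC. It was higher again in d3 EpiLC, with 55.5 CPM (51.6 to 59.5), and in EpiSC, with 46.9 CPM (43.2 to 50.8). The lowest library was therefore d2 EpiLC, and the level in d3 EpiLC was 4.21 (3.52 to 5.05) times as high. *Klf4* (ENSMUSG00000003032, chromosome 4, 55527143 to 55532466) dropped from a 2i ESC level of 247 CPM (236 to 257) to 7.91 CPM (6.34 to 9.76) in d1 EpiLC, the steepest first step of the 8 genes. Its levels in d2 EpiLC, d3 EpiLC and EpiSC were 4.12 CPM (3.02 to 5.50), 16.3 CPM (14.3 to 18.6) and 4.15 CPM (3.11 to 5.43), so that d3 EpiLC again lay above both of its neighbours. *Klf5* (ENSMUSG00000005148, chromosome 14, 99298691 to 99315036) fell from 198 CPM (189 to 208) to 19.7 CPM (17.2 to 22.5) in d1 EpiLC and moved in smaller steps after that, with 15.0 CPM (12.8 to 17.4) in d2 EpiLC, 18.7 CPM (16.5 to 21.1) in d3 EpiLC and 12.2 CPM (10.4 to 14.3) in EpiSC.

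*Esrrb* encodes an orphan nuclear receptor that is a target of GSK3 inhibition. It (ENSMUSG00000021255, chromosome 12, 86361117 to 86521628) declined at every step, from 60.5 CPM (55.5 to 65.9) in 2i ESC through 11.9 CPM (9.96 to 14.1), 1.97 CPM (1.24 to 2.99) and 0.568 CPM (0.245 to 1.12) in d1, d2 and d3 EpiLC to 0.235 CPM (0.0485 to 0.687) in EpiSC, although the intervals of the last pair overlap. *Tfcp2l1*, a factor of the CP2 family downstream of LIF and STAT3, lost its transcripts sooner. It (ENSMUSG00000026380, chromosome 1, 118627945 to 118685168) began in 2i ESC at 125 CPM (118 to 132) and reached 7.91 CPM (6.34 to 9.76) in d1 EpiLC and 0.896 CPM (0.430 to 1.65) in d2 EpiLC, and at 2.56 CPM (1.79 to 3.54) and 2.82 CPM (1.98 to 3.91) in d3 EpiLC and EpiSC. *Zfp42*, which encodes the zinc finger protein REX1 and is a common marker of the naive state, was also lower in each library in turn. It (ENSMUSG00000051176, chromosome 8, 43295063 to 43306980) went from 464 CPM (449.9 to 479) to 131 CPM (124 to 138) in d1 EpiLC, 22.1 CPM (19.4 to 25.0) in d2 EpiLC and 16.8 CPM (14.7 to 19.0) in d3 EpiLC, and EpiSC, at 1.25 CPM (0.717 to 2.04), had the lowest level of the libraries.

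*Tbx3* encodes a T-box factor with roles in naive ESC and in mesoderm. It (ENSMUSG00000018604, chromosome 5, 119670669 to 119684724) dropped from 145 CPM (137 to 153) in 2i ESC to 7.46 CPM (5.93 to 9.25) in d1 EpiLC, 1.17 CPM (0.620 to 1.99) in d2 EpiLC and 0.213 CPM (0.0439 to 0.623) in d3 EpiLC, where 3 UMIs were counted in all cells. EpiSC had 1.80 CPM (1.14 to 2.70). *Nr0b1*, the X-linked gene of the orphan receptor DAX1, took another course. It (ENSMUSG00000025056, chromosome X, 86191764 to 86195947) held 59.6 CPM (55.2 to 64.4) in d1 EpiLC after 62.5 CPM (57.3 to 67.9) in 2i ESC, a ratio whose interval includes 1. With TMM scaling the share of the 2i ESC level was 83.6%, below that interval. Its fall came a day later, to 5.38 CPM (4.10 to 6.92) in d2 EpiLC and 0.426 CPM (0.156 to 0.927) in d3 EpiLC. The EpiSC level of 1.10 CPM (0.600 to 1.84) rested on 14 UMIs in 3 of 373 cells, of which 1 cell held 12.

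**Figure D1:**
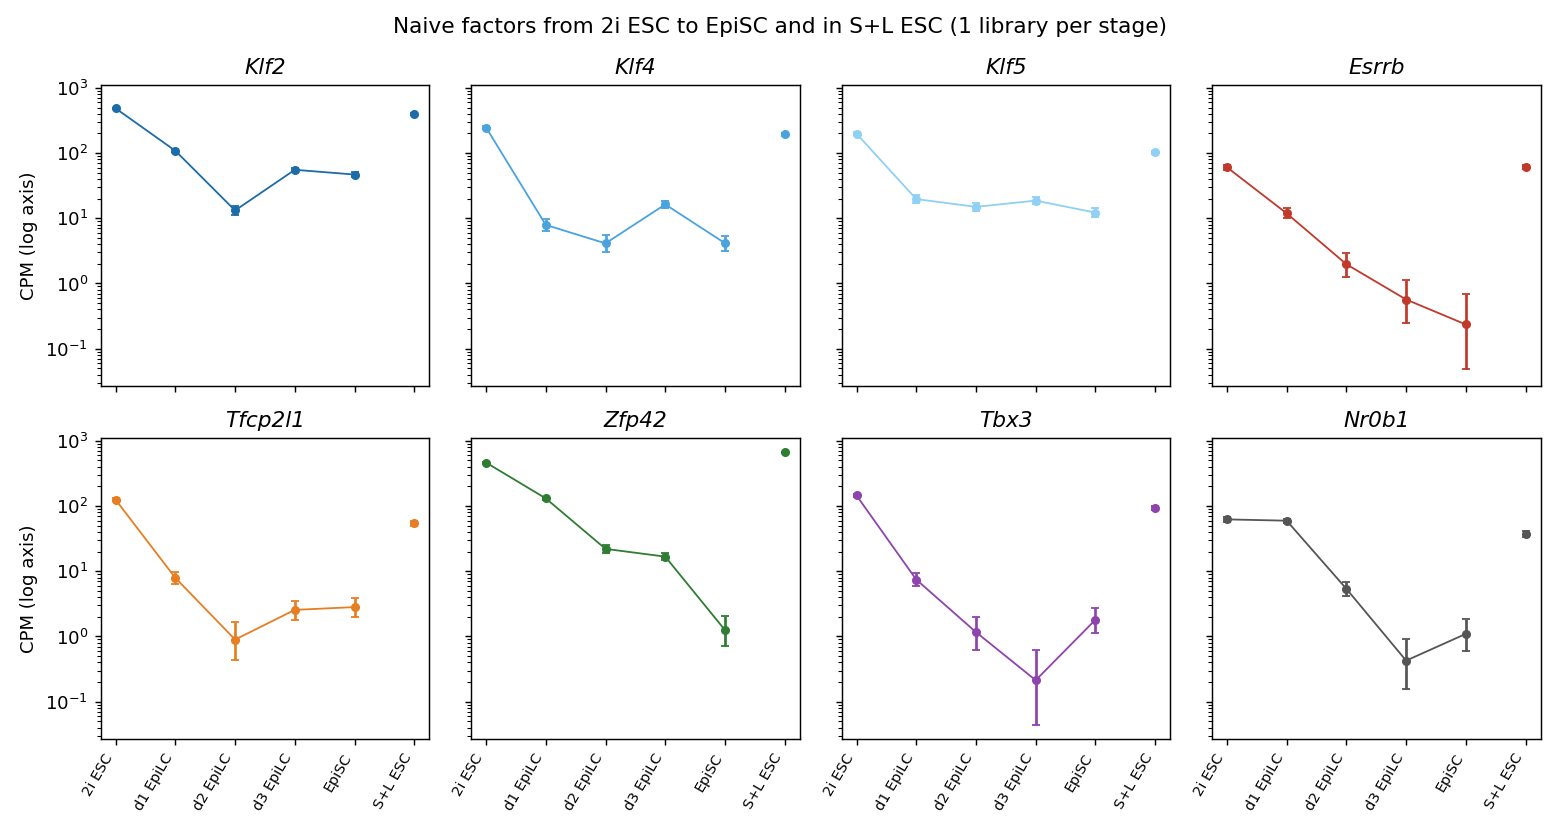
CPM on a log axis for each of the 8 genes (panels) in 6 E14Tg2a libraries, with 95% Poisson intervals as bars. Lines join the libraries from 2i ESC to EpiSC, and S+L ESC stands alone. *Nr0b1* stays near 59.6 CPM in d1 EpiLC, where *Klf4* and *Tfcp2l1* are both at 7.91 CPM.

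The order of loss was read from the share of the 2i ESC level that each gene kept. In d1 EpiLC this was 3.21% (2.56% to 3.98%) for *Klf4*, 5.13% (4.05% to 6.42%) for *Tbx3* and 6.34% (5.03% to 7.89%) for *Tfcp2l1*. *Klf5* kept 9.96% (8.61% to 11.5%), *Esrrb* 19.7% (16.1% to 23.9%) and *Klf2* 22.3% (20.9% to 23.8%). *Zfp42* kept 28.2% (26.6% to 30.0%) and *Nr0b1* 95.5% (85.1% to 107%). Neighbours in this order had overlapping intervals for *Tbx3* with *Tfcp2l1* and for *Esrrb* with *Klf2*, and the other neighbours did not overlap. A day later the order was different. In d2 EpiLC the lowest shares were those of *Tfcp2l1*, 0.718% (0.343% to 1.33%), and *Tbx3*, 0.802% (0.426% to 1.38%), and the highest those of *Klf5*, 7.56% (6.41% to 8.86%), and *Nr0b1*, 8.61% (6.48% to 11.3%), each pair overlapping. *Tbx3* also overlapped with *Klf4*, at 1.67% (1.22% to 2.24%). In d3 EpiLC *Tbx3* kept the least, 0.147% (0.0302% to 0.430%), overlapping with *Nr0b1*, which had moved to the low end with 0.682% (0.249% to 1.49%), and with *Esrrb* at 0.939% (0.403% to 1.86%). The most was kept by *Klf2*, 11.4% (10.6% to 12.3%), overlapping with *Klf5* at 9.43% (8.25% to 10.7%). In EpiSC *Zfp42* kept the least, 0.270% (0.154% to 0.439%), overlapping with *Esrrb* at 0.388% (0.0799% to 1.14%), and *Klf2* again the most, 9.66% (8.85% to 10.5%). The small shares depend on the pseudocount, and with 5 CPM added those in d1 EpiLC were 5.13% for *Klf4*, 8.29% for *Tbx3* and 9.95% for *Tfcp2l1*.

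By a fixed rule of at least 2-fold on CPM plus a pseudocount of 1, among genes with at least 10 UMIs over both groups, 7 of the 8 genes were lower in d1 EpiLC than in 2i ESC, against 6.54% of all genes compared. The exception was *Nr0b1*. By the same rule 0 of 8 were higher, against 12.1% of all genes. In d2 EpiLC, d3 EpiLC and EpiSC 8 of 8 were lower, against 6.49%, 7.82% and 7.85% of all genes. The genes were chosen as naive factors with earlier results of these data known, so these counts describe them and are no support. The median log2 ratio to 2i ESC was -2.76 in d1 EpiLC and -5.31 in EpiSC, against 0.17 and 0.38 over all genes. From d2 to d3 EpiLC, *Klf2* and *Klf4* were at least 2-fold higher, as were 3.44% of all genes, and *Nr0b1* was at least 2-fold lower, as were 3.1%. The latter count of 1 depends on the setting and was 0 with a pseudocount of 5 CPM, 3 with mean UMIs per cell and 2 in thinned cells. *Tfcp2l1* had a ratio of 2.85 (1.39 to 6.44) in this step, from 10 UMIs in d2 EpiLC.

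S+L ESC, which receive LIF but neither inhibitor, held most of the network. *Zfp42* was above its 2i ESC level there, at 669 CPM (653 to 685), and *Esrrb*, at 61.8 CPM (57.0 to 66.8), kept 102% (90.7% to 115%) of it. *Klf2* with 400.1 CPM (388 to 413) and *Klf4* with 194 CPM (185 to 202) kept 82.4% (78.9% to 86.1%) and 78.6% (73.9% to 83.6%). *Tbx3* (92.5 CPM, 86.7 to 98.7), *Nr0b1* (37.2 CPM, 33.5 to 41.2) and *Klf5* (102 CPM, 96.2 to 109) were lower, and *Tfcp2l1*, at 54.0 CPM (49.6 to 58.8), kept the least with 43.3% (39.0% to 48.0%). It was the 1 gene of the 8 past the 2-fold rule, where 2.41% of all genes were. *Klf5*, with 51.7% (47.8% to 55.8%), lay next to the threshold and passed it under TMM scaling or with mean UMIs per cell. The sign of the *Esrrb* ratio, which lies close to 1, also changed under these settings and in thinned cells.

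The loss was also counted cell by cell. With every E14Tg2a cell thinned to 15374 UMIs, a 2i ESC cell held UMIs of 6.65 of the 8 genes on average, a d1 EpiLC cell of 2.62, a d2 EpiLC cell of 0.788, a d3 EpiLC cell of 1.05 and an EpiSC cell of 0.659. S+L ESC cells held 5.71. Without thinning the means were 7.55 in 2i ESC, 3.85 in d1 EpiLC and 1.11 in EpiSC. At least 4 of the genes were found in all 223 thinned 2i ESC cells, in 63 of 267 d1 EpiLC cells (23.6%, 18.6% to 29.2%), in 6 of 283 d2 EpiLC cells and in 0 of 361 EpiSC cells (upper limit 1.02%). These are counts of detection, and a cell that kept a low level would mostly show no UMI at this depth. In d1 EpiLC, the summed thinned UMIs of the 8 genes and of the 5 primed markers had a Spearman rho of -0.374 over 267 cells of equal depth. It was -0.0671 over 223 cells of 2i ESC. The 5 markers summed to 890.7 CPM in d1 EpiLC and only 54.6 CPM in 2i ESC. With so few marker UMIs in a 2i ESC cell, these rho values cannot be compared. Between single genes the rho across cells was low, with a median over 28 pairs of 0.0587 in 2i ESC and 0.0917 in d1 EpiLC. Thinned means in d1 EpiLC ran from 0.105 UMIs per cell for *Tfcp2l1* to 2.03 for *Zfp42*. Counts this low hold rho near 0, so these medians do not show that the genes vary independently.

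*Nr0b1* was found in 77.5% of 2i ESC cells and 73.9% of d1 EpiLC cells (55.2% and 52.4% after thinning), *Klf4* in 98.2% and 22.5% (92.4% and 13.1%). The level of *Nr0b1* in d1 EpiLC was therefore spread over a like share of cells and did not sit in a few of them. In EpiSC, where both genes were low, 0.804% of cells had a UMI of *Nr0b1* and 11.8% one of *Klf4* (0.554% and 6.37% thinned). Median UMIs per cell were 31587 there, 36750 in d1 EpiLC and 33971 in 2i ESC. EpiSC are a separate library with 14 UMIs of *Nr0b1* in all, so these shares do not give the background within d1 EpiLC. That background was not measured.

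Genes around the network were counted by the same rule, which took 6.54% of all genes as lower and 12.1% as higher in d1 EpiLC. Of 12 other naive factors, 6 were at least 2-fold lower in d1 EpiLC than in 2i ESC and 1 higher, 9 were lower in d2 EpiLC and 10 in EpiSC, with a median log2 ratio of -1.08 in d1 EpiLC. In 2i ESC and then d1, d2 and d3 EpiLC *Nanog* had 116, 10.2, 18.8 and 41.9 CPM, so that, like *Klf2* and *Klf4*, it was lower in d2 than in d3 EpiLC, and *Tcl1* was at 105, 13.3 and 0.538 CPM in 2i ESC, d1 and d2 EpiLC. Of 10 genes that bring LIF and WNT signals to the network, 4 were lower and 2 higher in d1 EpiLC. *Socs3*, a direct target of STAT3, went from 35.4 to 1.45 CPM and *Stat3* itself from 31.2 to 10.5 CPM, while *Lef1* was higher, at 78.6 after 1.94 CPM. In S+L ESC *Socs3* was at 74.9 CPM. Of 12 formative and primed factors, 11 had enough UMIs and 9 were higher in d1 EpiLC, led by *Pou3f1* with 1.03 CPM in 2i ESC and 302 CPM in d1 EpiLC. Of 23 related genes 15 had enough UMIs, and 2 were lower and 2 higher in d1 EpiLC, with a median log2 ratio of -0.06 against 0.17 over all genes.

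All 8 genes were higher in the listed PGCLC than in d2 EpiLC, from which the EB were made. These cells were picked by the authors from clusters of the same transcriptomes, so the following levels describe that choice and support nothing. *Klf2* had 319.8 CPM (299.7 to 341) in d2 PGCLC and 632 CPM (584 to 681) in d4 PGCLC, and the latter was 130.1% (119.7% to 141%) of the 2i ESC level. *Zfp42* had 166 CPM (151 to 181) and 405 CPM (367 to 445), and *Esrrb* 22.8 CPM (17.7 to 29.0) and 49.3 CPM (36.8 to 64.7). These 3 genes were higher at d4 than at d2, with ratios of 1.97 (1.79 to 2.18), 2.44 (2.14 to 2.79) and 2.16 (1.47 to 3.15), and so was *Klf4*, with 1.49 (1.07 to 2.06). *Tbx3* was lower at d4, with 0.692 (0.493 to 0.953), and the intervals of the other 3 genes include 1. *Klf4* reached 37.5 CPM (30.8 to 45.2) and 55.9 CPM (42.6 to 72.2), *Klf5* 77.4 CPM (67.7 to 88.1) and 74.0 CPM (58.5 to 92.3), and *Tfcp2l1* 23.2 CPM (18.0 to 29.4) and 34.1 CPM (23.9 to 47.3). *Tbx3* was at 65.8 CPM (56.8 to 75.8) and 45.5 CPM (33.6 to 60.3) and *Nr0b1* at 15.7 CPM (11.5 to 20.9) and 14.2 CPM (7.96 to 23.5). The listed d2 cells also had markers of other fates, with summed levels of 185 CPM for primitive streak and 113 CPM for extraembryonic mesoderm, against 4.03 and 1.52 CPM in d2 EpiLC. In d4 PGCLC these sums were 4.74 and 16.1 CPM. The part of this difference between the days in the d4 over d2 ratios was not tested. Of the *Tbx3* UMIs of d2 PGCLC, 54 of 193 lay in 7 cells with exactly 3 markers of extraembryonic mesoderm. As shares of the 2i ESC level in d2 PGCLC, *Klf2* had 65.9% (61.3% to 70.7%), followed by *Tbx3* with 45.3% (38.7% to 52.7%), *Klf5* with 39.1% (33.9% to 44.9%), *Esrrb* with 37.7% (28.8% to 48.7%) and *Zfp42* with 35.7% (32.4% to 39.2%), of which neighbours after *Klf2* overlap. In d4 PGCLC *Klf4* had 22.7% (17.2% to 29.4%), *Nr0b1* 22.8% (12.7% to 37.9%), *Tfcp2l1* 27.3% (19.1% to 38.1%), *Tbx3* 31.3% (23.0% to 41.8%) and *Klf5* 37.3% (29.4% to 46.8%), neighbours that overlap, followed by an overlapping pair, *Esrrb* with 81.5% (60.1% to 108%) and *Zfp42* with 87.2% (78.8% to 96.4%). *Nr0b1*, which kept the most in d1 EpiLC, thus stood among the lowest in d4 PGCLC, with a ratio to d2 EpiLC of 2.64 (1.39 to 4.72). The 2-fold rule took 8 of 8 genes in d2 PGCLC and 8 of 8 in d4 PGCLC, where it took 9.13% and 9.18% of all genes. The call of *Nr0b1* was lost on both days with a pseudocount of 5 CPM or at 3-fold, and at d4 with mean UMIs per cell, which left 7 genes each time.

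Against the remaining EB cells the genes parted. Taking both days together, 6 of 8 were at least 2-fold higher in the listed PGCLC, where 6.41% of all genes were. *Esrrb* was at 29.8 CPM (24.7 to 35.7) in the listed cells and 0.740 CPM (0.414 to 1.22) in the rest, and *Nr0b1* at 15.3 CPM (11.7 to 19.6) and 0.0493 CPM (0.00125 to 0.275). At d4 the remaining cells had 0 UMIs of *Nr0b1*, against 15 in d4 PGCLC, and the interval of the ratio began at 29.1. *Klf2* and *Zfp42* were lower but detected in the rest, at 58.1 CPM (54.8 to 61.5) and 15.0 CPM (13.4 to 16.8). By day, the remaining cells had *Klf2* at 34.1 CPM (30.9 to 37.7) at d2 and 90.9 CPM (84.6 to 97.5) at d4. *Zfp42* was at 16.3 CPM (14.1 to 18.8) and 13.2 CPM (10.9 to 15.9). *Klf4* and *Tbx3* were not higher in PGCLC. *Klf4* had 40.5 CPM (36.9 to 44.3) in the remaining d2 cells and 70.9 CPM (65.4 to 76.8) in the remaining d4 cells, and its ratios of PGCLC to rest were 0.927 (0.746 to 1.14) and 0.789 (0.594 to 1.03), which include 1, and 0.795 (0.672 to 0.936) over both days, which does not. The days are mixed unequally in the pooled groups, with 2933129 UMIs of d2 and 1054626 of d4 in PGCLC and 11716150 and 8548972 in the rest, so the pooled ratio cannot be read as a difference within a day. *Tbx3* was at 168 CPM (160.5 to 175) and 142 CPM (134 to 151) in the remaining cells, 2.55 (2.20 to 2.97) and 3.13 (2.34 to 4.27) times its level in PGCLC. The listed cells held 3.79% of the *Tbx3* UMIs of d4 EB and 88.1% of those of *Esrrb*, with 11.0% of all UMIs.

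**Figure D2:**
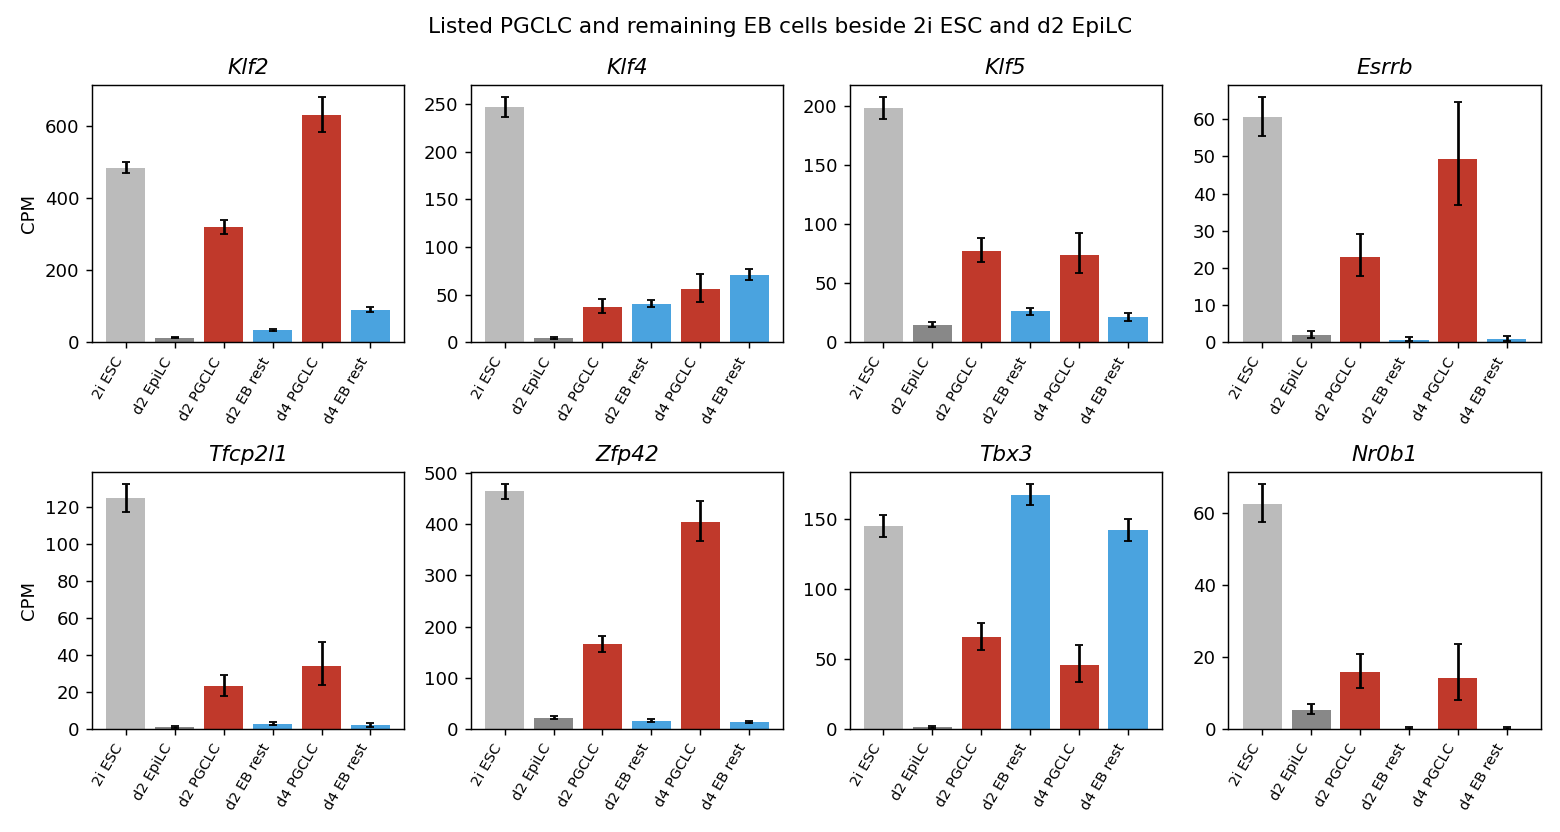
CPM of each gene (panels, axes from 0) in 2i ESC, d2 EpiLC, listed PGCLC and remaining EB cells of d2 and d4, with 95% Poisson intervals. Bars of PGCLC are red and those of remaining EB cells blue. *Tbx3* is higher in the remaining cells, with 142 CPM at d4 against 45.5 CPM in PGCLC.

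Compared with d2 EpiLC, 3 of the 8 genes (*Klf2*, *Klf4*, *Tbx3*) were at least 2-fold higher in the remaining d4 EB cells, where 22.7% of all genes were. Their levels differed between cells with different markers, and a cell was assigned when it had a UMI of at least 3 markers of a list. In 241 of the 324 cells with markers of extraembryonic mesoderm (*Hand1*, *Foxf1*, *Pitx1*, *Tbx4*, *Bmp4*, *Postn*), of which 45 had exactly 3, *Tbx3* was at 175 CPM (164 to 187) and *Klf4* at 78.1 CPM (70.9 to 85.7). In 24 cells with endothelial markers (*Cdh5*, *Kdr*, *Emcn*, *Cldn5*, *Tek*, *Esam*), *Klf2*, which is also known as a flow-responsive factor of endothelium, was at 191 CPM (166 to 218) and *Tbx3* at 79.3 CPM (63.9 to 97.4). In 42 cells with extraembryonic ectoderm markers (*Esx1*, *Rhox6*, *Rhox9*, *Elf5*, *Ascl2*, *Plac1*, *Wnt7b*), *Klf5* was at 31.97 CPM (24.5 to 41.1) and *Tbx3* at 86.5 CPM (73.8 to 101). A cell can have markers of more than 1 list.

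Over the 10 E14Tg2a groups (8 libraries, EB split by the listed barcodes), the genes with the most similar log2 CPM were found for each member among 6983 genes with at least 20 CPM in a group. For *Zfp42* they were *Triml1* (r = 0.986) and *Triml2* (r = 0.978), which lie on the same chromosome as *Zfp42*, at 43129807 to 43141486 and 43180541 to 43193881 on chromosome 8. For *Tfcp2l1* they were *Jam2* (r = 0.988) and *Lrrc34* (r = 0.980), and for *Klf5* they were *Tfcp2l1* itself (r = 0.955) and again *Lrrc34* (r = 0.947). *Esrrb* was followed by *Mymx* (r = 0.984) and *Lrrc31* (r = 0.982), the latter next to *Lrrc34* on chromosome 3. *Nr0b1* paired with *Gtsf1l* (r = 0.976) and *Dhx16* (r = 0.966), neither of which was lower in d1 EpiLC. *Gtsf1l* stood at 127 CPM in 2i ESC and 149 CPM in d1 EpiLC, *Dhx16* 130.2 and 251 CPM. *Tbx3* was most like *Lgals3* (r = 0.967) and *Fn1* (r = 0.925), *Klf2* like *Ulk1* (r = 0.953) and *Mok* (r = 0.945), and *Klf4* like *Trps1* (r = 0.957). The groups are not independent, since PGCLC and remaining cells share libraries, and these values are a description.

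In R1 d4 EB, 7 of the 8 genes were higher in the dCD library than in the WT library. *Zfp42* was at 105 CPM (101 to 109.8) in WT and 215 CPM (209 to 221) in dCD, a ratio of 2.04 (1.94 to 2.15). *Klf5* was at 63.2 CPM (59.8 to 66.7) and 135 CPM (130.5 to 140.0), and *Tfcp2l1* at 22.7 CPM (20.7 to 24.8) and 53.0 CPM (50.0 to 56.0). Their ratios were 2.14 (2.00 to 2.28) and 2.33 (2.096 to 2.60). *Esrrb*, with 10.9 CPM (9.55 to 12.5) and 25.6 CPM (23.6 to 27.8), and *Nr0b1*, with 7.33 CPM (6.21 to 8.60) and 16.6 CPM (15.0 to 18.4), had ratios of 2.35 (2.01 to 2.75) and 2.26 (1.87 to 2.75). *Klf4* was at 43.8 CPM (41.0 to 46.8) and 79.0 CPM (75.4 to 82.7) and *Klf2* at 91.4 CPM (87.3 to 95.6) and 141 CPM (136 to 146), with smaller ratios of 1.80 (1.66 to 1.96) and 1.54 (1.46 to 1.63). *Tbx3* stood apart with 247 CPM (241 to 254) in WT and 234 CPM (228 to 241) in dCD, a ratio of 0.947 (0.911 to 0.984). By the 2-fold rule 5 of 8 were higher in dCD, where 6.31% of all genes were, and 0 of 8 lower, where 3.68% were. This count depends on the setting, since 2 passed with a pseudocount of 5 CPM, 3 with thinned cells or with mean UMIs per cell, and 0 at 3-fold. *Zfp42* had a UMI in 18.1% of WT cells and 45.9% of dCD cells (15.2% and 38.7% thinned to 6831 UMIs, at median depths of 13188 and 11751 UMIs). In cells with no UMI of any of 8 other naive genes the shares were 3.12% in WT and 11.0% in dCD, or 1.56% and 6.23% thinned, at median depths of 12351 and 9898 UMIs.

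Of the 12 other naive factors 4 were at least 2-fold higher in dCD, 0 lower and 8 between, where 6.31% of all genes were higher and 3.68% lower, with a median log2 ratio of 0.84 against 0.03 over all genes. *Dppa5a* was at 650.5 CPM in WT and 1919 CPM in dCD, *Nanog* at 40.0 and 116 CPM. Of the 12 formative and primed factors 2 were higher and 1 lower, with a median log2 ratio of 0.62. Of the 10 LIF and WNT genes 0 were higher and 1 lower. Cells were then split by 8 naive markers outside the 8 genes (*Nanog*, *Tdh*, *Fbxo15*, *Dppa5a*, *Zfp57*, *Gbx2*, *Tcl1*, *Nr5a2*), a split chosen after the values had been seen. Since some of these markers were themselves higher in dCD, the split cannot tell more cells from more transcripts per cell, and it only describes where the UMIs lay. A cell with a UMI of at least 3 of them is called naive-marked. This was so for 227 of 1416 WT cells (16.03%, 14.2% to 18.0%) and 643 of 1699 dCD cells (37.8%, 35.5% to 40.2%). In thinned cells the shares were 13.5% and 32.6%. Exactly 3 markers were found in 39 WT and 139 dCD cells and exactly 2 in 83 and 240, so the class is a range and not a cell type. These cells held 97.8% of the *Esrrb* UMIs in WT and 96.3% in dCD, with 18.3% and 43.6% of all UMIs.

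Within the naive-marked cells, *Esrrb* was at 58.4 CPM (50.9 to 66.6) in WT and 56.6 CPM (52.0 to 61.4) in dCD, *Tfcp2l1* at 109.8 CPM (99.5 to 121) and 114 CPM (107 to 121), and *Nr0b1* at 39.0 CPM (33.0 to 45.8) and 37.0 CPM (33.4 to 41.0), each with a ratio whose interval includes 1, and the sign for *Tfcp2l1* changed in thinned cells, with TMM scaling, with mean UMIs per cell and with the mean of each cell's CPM. *Klf2* was lower in dCD, at 282 CPM (272 to 293) after 417 CPM (396 to 438), and so was *Zfp42*, at 459.9 CPM (447 to 473) after 555 CPM (532 to 579). Higher in dCD were *Klf5*, at 153 CPM (141 to 166) in WT and 228.8 CPM (219.5 to 238) in dCD, *Tbx3*, at 147 CPM (135 to 159) and 198 CPM (189.9 to 207), and *Klf4*, at 119 CPM (108 to 130.4) and 138 CPM (131 to 146). By the 2-fold rule 0 of 8 genes were higher in dCD here, where 9.54% of all genes were. A naive-marked WT cell held 4.28 and a naive-marked dCD cell 3.91 of the 8 genes on average after thinning, compared with 1.18 and 1.39 in the other cells. These ratios pool cells that differ in PGC markers (a UMI of at least 2 of *Prdm1*, *Prdm14*, *Dppa3* and *Nanos3*), which 93 of the 227 naive-marked WT cells and 84 of the 643 naive-marked dCD cells had. Among naive-marked cells without them the ratio of dCD over WT was 0.831 (0.740 to 0.935) for *Klf4*, 0.951 (0.857 to 1.06) for *Tbx3*, 0.675 (0.537 to 0.852) for *Nr0b1* and 0.840 (0.734 to 0.963) for *Tfcp2l1*. It was 0.868 (0.717 to 1.06) for *Esrrb*, 1.33 (1.19 to 1.49) for *Klf5*, 0.675 (0.624 to 0.731) for *Klf2* and 0.704 (0.662 to 0.750) for *Zfp42*. Without the PGC-marked cells, *Klf5* alone of the 8 genes was thus higher in dCD. Markers of other cell types also differed between the libraries. Cells with at least 3 markers of extraembryonic mesoderm numbered 534 in WT and 34 in dCD. Of these, 213 and 29 had exactly 3, and 339 and 199 further cells had exactly 2, so these numbers rest on the limit chosen. The summed level of the 6 markers was 949 and 225 CPM, most of it *Hand1* (626 and 165 CPM). Higher in dCD were the sums for extraembryonic ectoderm (118 and 237 CPM), endoderm or gut (43.2 and 87.3 CPM), primed epiblast (74.6 and 109 CPM) and the 2-cell embryo (0.0486 and 19.4 CPM). The extraembryonic ectoderm sum rested mostly on *Plac1* in WT (94.3 CPM), while *Rhox6* was its most abundant marker in dCD (110 CPM). Its rise is therefore not one of all its markers alike. Of the endoderm or gut sum, *Trh* made up 20.4 CPM in WT and 72.1 CPM in dCD, and the remainder was not higher in dCD. Cells with at least 3 of these 6 markers numbered 14 in WT and 2 in dCD. In 2i ESC of E14Tg2a, *Trh* was 292.4 of the 292.7 CPM of this sum, so it does not mark endoderm alone. In cells with at least 3 markers of extraembryonic ectoderm, 12 in WT and 79 in dCD, of which 10 and 63 had exactly 3, *Klf5* was at 143 CPM (104 to 191) and 133 CPM (116 to 152). The same cells had *Zfp42* at 114 and 231 CPM, *Klf2* at 124 and 192 CPM and *Tfcp2l1* at 38.2 and 61.8 CPM. *Tbx3* was at 156 and 113 CPM. These markers thus did not set the class apart from cells with naive transcripts. The part of these cells in the differences was not tested. In the extraembryonic mesoderm class *Tbx3* was abundant, at 324 CPM (311 to 337) in WT and 375 CPM (329 to 426) in dCD.

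**Figure D3:**
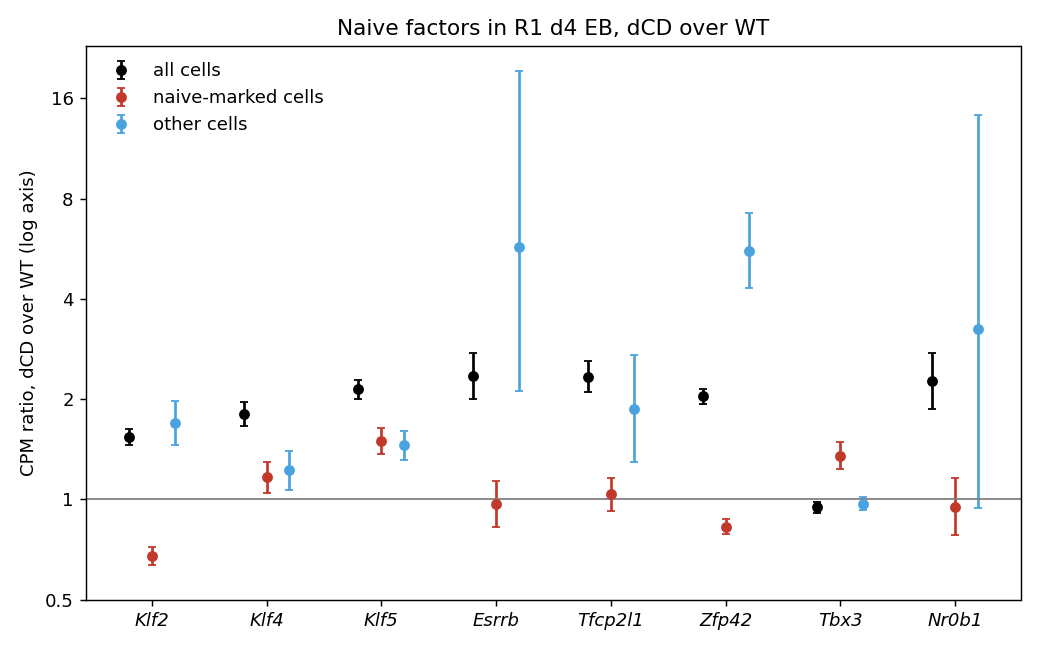
Ratio of CPM in dCD over WT d4 EB (log axis) for the 8 genes, with exact conditional 95% intervals, in all cells (black), naive-marked cells (red) and other cells (blue). *Esrrb* has a ratio of 2.35 over all cells and 0.969 in the naive-marked ones.

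R1 cells have no list of PGCLC barcodes, so the cells with PGC markers are described, which need not be PGCLC. There were 115 in WT and 92 in dCD. Exactly 2 markers were found in 70 and 66 of them, and exactly 1 in 176 and 307 further cells, so this class is a range as well. The class is defined by few UMIs, and whether it holds the same kind of cell in both libraries was not tested here. The paper used a similar class, with *Prdm1* or *Dppa3* but not *Klf4*. It reports most WT cells of that class in the PGCLC cluster and many dCD cells in undefined clusters. The PGCLC cluster itself held far fewer dCD than WT cells in the paper. In dCD cells of its class, the paper reports reduced expression of enhancer-linked PGCLC genes, with *Esrrb* among its examples. The class here differs, since *Klf4* had a UMI in 29 of its 115 WT and 43 of its 92 dCD cells. Its ratios are therefore no check of that result. For the PGC-marked cells here, the ratio of dCD over WT was 2.62 (2.11 to 3.27) for *Tbx3*, 2.45 (1.85 to 3.28) for *Klf4*, 2.42 (1.66 to 3.58) for *Nr0b1* and 1.79 (1.44 to 2.24) for *Tfcp2l1*. It was 1.64 (1.38 to 1.97) for *Klf5*, 1.26 (0.930 to 1.72) for *Esrrb*, 1.21 (1.09 to 1.34) for *Zfp42* and 0.785 (0.702 to 0.877) for *Klf2*, which alone was lower in dCD. In WT, 5 of the 8 genes (*Klf2*, *Esrrb*, *Tfcp2l1*, *Zfp42*, *Nr0b1*) were at least 2-fold higher in PGC-marked than in other cells, where 7.73% of all genes were. *Klf2* had 396 CPM (368 to 425) with PGC markers and 59.96 CPM (56.5 to 63.6) without, and *Tbx3* was lower, at 61.9 CPM (51.2 to 74.0) against 267 CPM (259 to 274). Naive-marked WT cells with and without PGC markers differed most in *Klf4* and *Tbx3*. *Klf4* was at 42.9 CPM (33.5 to 54.2) in the 93 cells with PGC markers and 177 CPM (159 to 196) in the 134 without, and *Tbx3* at 54.6 CPM (43.8 to 67.2) and 217 CPM (198 to 238), while *Klf2*, at 434 CPM (402 to 467) and 404 CPM (377 to 431), did not differ beyond counting error. In dCD *Klf4* was at 96.0 CPM (81.8 to 112) and 147 CPM (139 to 155), and *Tbx3* at 159.8 CPM (141 to 180.2) and 206 CPM (197 to 216), in 84 and 559 cells. For *Nr0b1*, the ratio of naive-marked cells with over without PGC markers was 0.507 (0.345 to 0.734) in WT and 1.64 (1.28 to 2.08) in dCD. Whether these ratios differ between the lines was not tested.

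For the sequence before these genes, the 250 bases before the RefSeq start of those with an entry (GRCm38.p6, 7 starts of *Klf2*, *Klf4*, *Esrrb* with 2 starts, *Tfcp2l1*, *Zfp42* and *Nr0b1*) were searched on both strands for motifs chosen after the sequences had been seen, CACGCCC (Krüppel-like factors), ATGCAAAT (octamer), AAGGTCA (estrogen-related receptors), TTCCNGGAA (STAT), AGGTGTGA (T-box) and TATAAA. In the same window of all 32851 promoters the shares with a match were 7.55%, 1.6%, 4.08%, 0.913%, 1.12% and 12.4%. *Tfcp2l1* had 2 matches of CACGCCC and 1 of TATAAA, *Zfp42* 1 of ATGCAAAT, read on the other strand, and *Nr0b1* 1 of TATAAA. No matches overlapped. The other windows held none of these letters, which says nothing of the factors. *Klf5* and *Tbx3* are named only. The windows of *Zfp42* (chr8:43307010-43307259, minus strand) and *Tfcp2l1* (chr1:118627695-118627944, plus strand) are shown as those with a factor motif, 5′ to 3′ on the strand of the gene, with matches in capitals.
*Zfp42*: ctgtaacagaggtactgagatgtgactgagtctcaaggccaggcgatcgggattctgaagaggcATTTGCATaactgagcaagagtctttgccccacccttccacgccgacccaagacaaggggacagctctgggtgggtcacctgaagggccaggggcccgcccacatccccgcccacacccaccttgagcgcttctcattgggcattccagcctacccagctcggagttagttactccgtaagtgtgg
*Tfcp2l1*: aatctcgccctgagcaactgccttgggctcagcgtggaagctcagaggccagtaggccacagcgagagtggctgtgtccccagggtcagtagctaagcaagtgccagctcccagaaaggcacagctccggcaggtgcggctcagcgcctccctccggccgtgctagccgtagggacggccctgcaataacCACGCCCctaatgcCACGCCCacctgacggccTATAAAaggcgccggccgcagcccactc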

How the data were processed

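The authors deposited UMI counts per gene and cell for both tables. Those of E14Tg2a were made with Cell Ranger on mm10 per the submitters' notes, after the libraries had been brought to a common depth of mapped reads. For the R1 table mm10 is given and the counting program is not stated. Suffixes of E14Tg2a barcodes were assigned to stages as the paper's supplement pairs them. Ensembl identifiers were paired with symbols through GENCODE vM21 (27645 matched). The 8 genes and all lists were chosen with earlier results of these data known. Named beside the 8 genes were up to 4 genes per list with the largest absolute log2 ratio among those with at least 50 UMIs, others for their role after their values were seen, and up to 2 of the genes most similar to each. Python 3.11.15 gave CPM, ratios and thinning (seed 1), using pandas 2.3.3, scipy 1.17.1 and numpy 2.4.6. Scrublet doublets (0.441% to 7.61% of a library, kept) came from scanpy 1.11.5, the alternative TMM scaling from edgeR 4.0.16 and figures from matplotlib 3.10.9. Thinning left out 4 (2i ESC) to 37 (d4 EB) cells per E14Tg2a library, 50 of R1 WT and 170 of dCD. The E14Tg2a and R1 tables, from different versions of the library kit, were not compared with each other. The fold rule and the intervals were tested on pooled counts simulated as Poisson counts, and the thinning on cells of 2i ESC. The simulation held no spread between cells beyond counting error, so it cannot show how the intervals fare under such spread.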

Additional observations from a re-analysis of the deposited data

Results flagged for a closer look

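Of the 8 genes, *Klf2* and *Zfp42* had ratios of dCD over WT that pointed in opposite directions in naive-marked and other cells of R1 d4 EB, each with an interval that leaves out 1. This split of the cells was added after seeing the data. For *Klf2* the ratio was 0.677 (0.637 to 0.721) in naive-marked cells and 1.70 (1.46 to 1.97) in the other cells. For *Zfp42* it was 0.828 (0.787 to 0.873) and 5.56 (4.31 to 7.25). The difference between the classes was not tested, and each genotype was 1 library. The other cells include those with 1 or 2 of the 8 naive markers. Among cells with none of them, 738 in WT and 438 in dCD, the ratio was 0.796 (0.556 to 1.12) for *Klf2*, which includes 1, and 4.29 (2.64 to 7.14) for *Zfp42*. Among naive-marked cells without PGC markers it was 0.675 (0.624 to 0.731) for *Klf2* and 0.704 (0.662 to 0.750) for *Zfp42*. Median UMIs per cell were 15583 in naive-marked WT cells and 13957 in naive-marked dCD cells, and their part in these ratios was not tested.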

How the results depend on the processing

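No paired analysis was possible because each condition had 1 library. The 16 counts of genes past the fold rule were recomputed 134 times, and 124 of these lay within 1.5 times the value reported. Among the settings, leaving out the filter on low counts could change no count or ratio, since all 8 genes passed it in each comparison. For 5 of the counts the alternatives were added after seeing the data. The recomputed counts outside that range concern S+L ESC against 2i ESC, where the count of 1 became 2 with TMM scaling or with mean UMIs per cell and 0 at 3-fold, and the genes higher in dCD, where the count of 5 became 2 with a pseudocount of 5 CPM, 3 with mean UMIs per cell, 3 in thinned cells and 0 at 3-fold. The count of 1 gene lower in d3 than in d2 EpiLC became 0 with a pseudocount of 5 CPM, 3 with mean UMIs per cell and 2 in thinned cells. The cause was not tested. Of 768 recomputed ratios of single genes, 0 that had passed the rule changed sign. TMM moved the log2 ratios to 2i ESC by -0.19, -0.27 and -0.22 in d1, d2 and d3 EpiLC, -0.36 in EpiSC and -0.10 in S+L ESC, those of remaining d4 EB cells to d2 EpiLC by -0.22, those of listed PGCLC to remaining EB cells by 0.14 and those of PGC-marked to other WT cells by 0.10. Of 48 recomputed shares kept in d1 EpiLC, 39 stayed inside their intervals. Outside lay *Klf4* (5.13%), *Tbx3* (8.29%), *Tfcp2l1* (9.95%), *Klf5* (12.2%) and *Esrrb* (25.8%) with a pseudocount of 5 CPM, *Klf2* (19.5%), *Zfp42* (24.7%) and *Nr0b1* (83.6%) with TMM, and *Klf2* (20.2%) in thinned cells. In an alternative added after seeing the data, with all UMIs, d1 EpiLC cells held 3.85 of the genes rather than 2.62. The naive-marked shares, added after seeing the data, were 13.5% in WT and 32.6% in dCD after thinning.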

Other observations

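*Klf2* and *Zfp42* had the highest rho of the 28 pairs of genes in d1 EpiLC (0.318), in d2 PGCLC (0.498) and in both R1 libraries (0.707 in WT and 0.569 in dCD), as a description over 267, 91, 1366 and 1529 thinned cells. In 2i ESC the highest pair was *Klf4* with *Zfp42* (0.203, against 0.156 for *Klf2* with *Zfp42*) and in S+L ESC *Klf5* with *Zfp42* (0.235, against 0.0631). The R1 libraries mix cell types, and the 2 genes share their cells there.

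Among relatives of the 8 genes, *Klf9* was at 147 CPM in 2i ESC and 121 CPM in d3 EpiLC and at 35.6 CPM in EpiSC, *Klf6* was highest in d3 EpiLC with 282 CPM, and *Klf3* was at 90.8 CPM in d3 EpiLC and 13.9 CPM in EpiSC. In R1 d4 EB *Klf9* was at 34.2 CPM in WT and 126 CPM in dCD, and *Klf6* stood at 127 and 52.3 CPM.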
